A study of Mus musculus with 6 samples.

Results

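The CCAAT/enhancer-binding protein (C/EBP) genes were followed in neutrophils sorted from mouse blood, with and without ligature-induced periodontitis. The 7 genes *Cebpa*, *Cebpb*, *Cebpd*, *Cebpe*, *Cebpg*, *Cebpz* and *Ddit3* were taken by name from a table of 29097 genes, and all 7 reached the mean of at least 1 FPKM (read fragments scaled by gene length and by library total) over the libraries that was needed for testing, as did 10433 genes in all. CD45+CD11b+Ly6G+ cells came from the peripheral blood (PB) of 8-week-old male C57BL/6 wild-type mice whose second molars in both jaws had carried silk ligatures for 14 d (LIP) or that had stayed unligated over the same time (Ctrl). Each group had 3 Smart-seq2 libraries, and every library pooled the cells of 5 mice, so a value is an average over animals and the spread between single mice is not seen.

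C/EBP proteins are basic leucine zipper (bZIP) factors that bind DNA as dimers with each other or with related factors, and they set the course of granulocyte formation stage by stage. C/EBPα is needed for progenitors to enter the granulocyte and monocyte lineage, C/EBPε for the late steps in which secondary granules are filled, and C/EBPβ takes over when infection or growth factors call for rapid neutrophil production. C/EBPδ is an acute-phase member induced by cytokines, C/EBPγ lacks a strong activation domain and acts as a dimer partner, and CHOP, the product of *Ddit3*, is made under stress and binds its relatives in place of their usual partners. *Cebpz* carries the family name but encodes a nucleolar protein of ribosome assembly that has no leucine zipper.

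Total counts per library lay between 52186555 and 57262379. With TMM, all 20 genes of a mature neutrophil list were called higher in LIP, with summed values of 16650 to 18420 CPM in Ctrl and 62280 to 67540 CPM in LIP (counts as a rate of the library total after TMM normalization, a scaling that assumes that most genes do not change). Transcripts of other cells stood in the sorted libraries too and moved the other way: the 9 erythroid genes summed to 129800 to 138200 CPM in Ctrl and 17600 to 18330 in LIP, the 11 B cell genes to 20840 to 23140 and 4373 to 4405, and the 10 T cell genes to 716 to 878 and 171 to 202, and every one of these genes was called lower. Of 10 monocyte genes 8 were higher and 1 lower (720 to 814 and 1469 to 1607 CPM), all 8 platelet genes were higher (994 to 1234 and 2542 to 3058), and of 7 NK cell genes 3 were higher (339 to 402 and 434 to 454). Among 6 eosinophil and basophil genes tested 1 was higher and 1 lower. The sum over 7 genes of that list, tested or not, was 26.6 to 37.1 and 40.8 to 51.6 CPM. Of 4 immature neutrophil genes tested 1 was higher and none lower, with a median log2 difference of -0.34. The sum over all 10 genes of that list, most of them below the level needed for testing, was 66.5 to 76.4 and 113 to 126 CPM. In such bulk libraries fewer cells of a type and less RNA per cell cannot be told apart, and the part of these shifts in the C/EBP values was not tested. Scaled on the mature neutrophil list itself, every gene moves down, by a median of 1.77 on the log2 scale relative to TMM, and the median log2 difference of all genes goes from -0.09 to -1.86.

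For 4 C/EBP genes there is a promoter in the RefSeq table used here (GRCm38.p6), *Cebpb*, *Cebpg*, *Cebpa* and *Ddit3*, and all 4 belong to the genes that were higher in LIP with TMM. The 250 bases before the RefSeq start are shown for every member with an entry, which leaves out *Cebpd*, the member with the largest difference. Capitals mark each match, on either strand, to the CCAAT box (ATTGG when read on the other strand), to TTGCGC, the first 6 bases of the C/EBP palindrome, to the CREB and ATF core TGACG (which reads CGTCA on the other strand) and to the TATA box motif TATAAA. They lie at chr2:167688665-167688914 on the + strand for *Cebpb*, chr7:35056567-35056816 on the - strand for *Cebpg*, chr7:35119043-35119292 on the + strand for *Cebpa* and chr10:127290543-127290792 on the + strand for *Ddit3*.
Cebpb: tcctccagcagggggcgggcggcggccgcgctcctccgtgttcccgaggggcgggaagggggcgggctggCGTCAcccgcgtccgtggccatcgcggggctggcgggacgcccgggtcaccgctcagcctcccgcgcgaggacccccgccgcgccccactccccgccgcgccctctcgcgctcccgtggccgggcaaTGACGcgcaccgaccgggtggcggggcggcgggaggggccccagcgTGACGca
Cebpg: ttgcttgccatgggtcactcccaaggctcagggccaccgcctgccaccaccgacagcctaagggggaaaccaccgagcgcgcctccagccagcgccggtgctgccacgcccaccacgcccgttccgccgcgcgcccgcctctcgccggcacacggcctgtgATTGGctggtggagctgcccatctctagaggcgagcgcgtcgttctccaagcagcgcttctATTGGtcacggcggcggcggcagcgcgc
Cebpa: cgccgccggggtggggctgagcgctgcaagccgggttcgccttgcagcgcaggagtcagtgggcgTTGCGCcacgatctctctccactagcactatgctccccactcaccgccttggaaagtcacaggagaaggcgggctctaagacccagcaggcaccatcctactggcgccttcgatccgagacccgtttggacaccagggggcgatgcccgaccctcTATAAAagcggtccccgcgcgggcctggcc
Ddit3: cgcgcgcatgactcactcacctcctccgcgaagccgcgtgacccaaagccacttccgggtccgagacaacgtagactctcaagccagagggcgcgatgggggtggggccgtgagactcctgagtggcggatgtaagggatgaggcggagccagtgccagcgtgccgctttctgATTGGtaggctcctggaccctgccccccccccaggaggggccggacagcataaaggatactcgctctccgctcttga
The *Cebpb* run holds 3 matches of TGACG, with their leftmost bases at -180 (other strand), -53 and -7 from the start, and *Cebpg* and *Ddit3* hold the CCAAT box on the other strand, at -89 and -28 and at -77. *Cebpa* holds TTGCGC at -185 and TATAAA at -30, and *Cebpb* has TATAAA at 21 bases past the start, outside the run shown. Over windows of 300 bases, 50 of them past the start, CCAAT stood in 37.4% of 32817 promoters, TGACG in 20.8%, TATAAA in 13.6% and TTGCGC in 6.48%. The full C/EBP palindrome TTGCGCAA (0.183% of promoters), the looser form TTNCNNAA (40.7%), the full CRE TGACGTCA (1.79%, which holds TGACG) and the STAT form TTCNNNGAA (8.29%) had no match in the 4 windows. The *Cebpb* window was 80.7% G and C, and 99.2% of all promoters had less. *Cebpd*, *Cebpe* and *Cebpz* are named only.

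With TMM, 5 of the 7 C/EBP genes were higher in LIP with an edgeR adjusted p under 0.05, none was lower, and *Cebpe* and *Cebpz* did not pass, but scaled on the mature neutrophil list none was higher and 5 were lower, where 0.776% of all genes tested were called higher and 87.6% lower. At an unadjusted p under 0.05 in edgeR, and by DESeq2 and limma, these numbers were also 5 and 0. Over all genes tested, 26.5% were called higher and 27.2% lower with TMM, 28.9% and 30.7% at an unadjusted p under 0.05, 28.6% and 27.0% by DESeq2, and 19.3% and 40.7% by limma on FPKM. Library totals in place of TMM kept 5 C/EBP genes higher and 0 lower, while over all genes they moved the split from 2764 higher and 2839 lower to 1917 (18.4%) and 4148 (39.8%). The median log2 difference of the 7 genes was 0.93 with TMM. The CPM of the 3 LIP libraries did not overlap that of the 3 Ctrl libraries in 5 of the 7 genes, and in 63.4% of all genes. Relative to the median of all genes, which moves with the scaling, the differences were 1.93 for *Cebpd*, 1.49 for *Cebpb*, 1.28 for *Cebpa*, 1.03 for *Ddit3*, 0.88 for *Cebpg*, 0.20 for *Cebpe* and 0.08 for *Cebpz*, under TMM and under the neutrophil list alike.

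**Figure D1:**
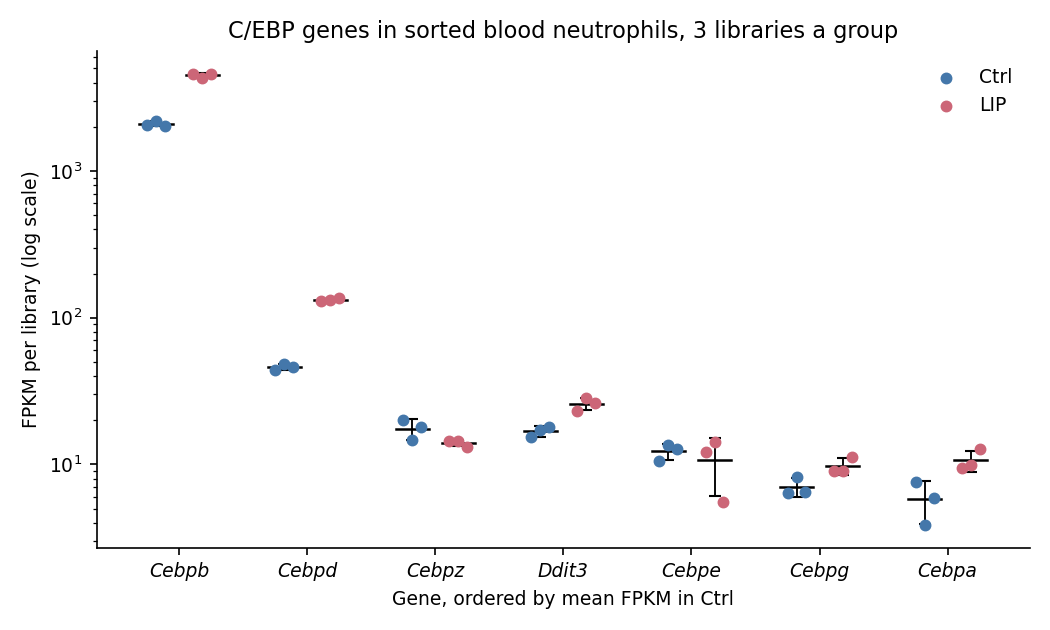
FPKM of the 7 C/EBP genes in each library on a log axis, with Ctrl in blue and LIP in red; horizontal bars are means and error bars SD (n = 3). *Cebpb* sits at 2038 to 2195 in Ctrl and 4302 to 4573 in LIP, far above the others, and *Cebpe* in the third LIP library falls to 5.57.

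Per length, the family was almost wholly *Cebpb* RNA. Its mean FPKM ranked 27th of all genes tested in Ctrl and 17th in LIP, and 2nd among the 311 tested genes annotated as DNA-binding transcription factors in both groups, behind *Junb*. *Cebpd* followed, 34th of these factors in Ctrl and 16th in LIP. In Ctrl, *Cebpz* and *Ddit3* came next and overlapped each other in FPKM, *Cebpe* lay below both, and *Cebpg* and *Cebpa* were lowest and overlapped. In LIP *Ddit3* stood alone behind *Cebpd*, *Cebpz* lay above *Cebpa* and *Cebpg*, and *Cebpe* overlapped all 3.

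*Cebpb* (ENSMUSG00000056501, chr2:167688915-167690418, + strand, a single exon) encodes the factor of demand-driven granulopoiesis. Its FPKM was 2069, 2195 and 2038 in the Ctrl libraries and 4543, 4302 and 4573 in the LIP libraries. The groups lay well apart, and the spread within each was small, with a coefficient of variation of 3.97% in Ctrl and 3.32% in LIP. In CPM it went from 3066 ± 161 to 8075 ± 285 (SD, n = 3 a group), a log2 difference of 1.40 (standard error 0.0658, edgeR adjusted p = 1.65e-07). Of all reads counted on genes, *Cebpb* took 0.342% in Ctrl and 0.723% in LIP. Scaled on the neutrophil list the log2 difference was -0.37 (edgeR adjusted p = 0.000289), as its TMM difference was below the median of 1.78 of that list.

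*Cebpd* (ENSMUSG00000071637, chr16:15887286-15891031, + strand, a single exon), the acute-phase member, had the largest difference of the 7. The Ctrl pools had 43.9, 48.1 and 46.3 FPKM, the LIP pools 131, 132 and 135. All 3 LIP pools were nearly alike, and each was above each Ctrl pool. Its CPM went from 168 ± 10.3 to 597 ± 8.06 (SD, n = 3 a group), with a log2 difference of 1.83 (standard error 0.0940, edgeR adjusted p = 2.42e-07), and 2.95% of all genes tested had a larger one. It was the member that moved most nearly as the neutrophil list did, with a log2 difference of 0.07 with that list as the scale (edgeR adjusted p = 0.494).

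*Cebpa* (ENSMUSG00000034957, chr7:35119293-35121928, + strand, a single exon in its longest coding transcript), the factor of lineage entry, had the lowest mean FPKM of the 7 in Ctrl, where its pools overlapped those of *Cebpg*. It stood at 7.63, 3.85 and 5.95 FPKM in Ctrl and at 9.43, 9.92 and 12.7 in LIP. The Ctrl pools varied widely, with a coefficient of variation of 32.6%, yet they did not overlap LIP. The CPM of 14.8 ± 4.599 and 33.8 ± 5.44 (SD, n = 3 a group) gave a log2 difference of 1.19 (standard error 0.255, edgeR adjusted p = 0.00279). With the neutrophil list as the scale it was -0.58 and did not pass (edgeR adjusted p = 0.0657).

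*Cebpe* (ENSMUSG00000052435, chr14:54710360-54712174, - strand, 2 exons), the factor of secondary granule formation, did not pass the test. Its FPKM was 10.6, 13.6 and 12.7 in Ctrl, and 12.2, 14.2 and 5.57 in LIP. Of the LIP pools, 2 lay within or just above the Ctrl range and the third far below it, so that the LIP coefficient of variation was 42.5%. From 14.8 ± 2.05 to 15.9 ± 6.76 CPM (SD, n = 3 a group), it had a log2 difference of 0.10 with a standard error of 0.328 (edgeR adjusted p = 0.802). Without the third LIP library the log2 difference was 0.41 and the test still not passed (edgeR adjusted p = 0.192), and with library totals it was -0.22. Scaled on the neutrophil list, *Cebpe* was called lower, by -1.66 (edgeR adjusted p = 0.000901).

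The dimer partners came next. *Cebpg* (ENSMUSG00000056216, chr7:35046422-35056573, - strand, 2 exons) lies beside *Cebpa* on chromosome 7. Its FPKM was 6.41, 8.23 and 6.53 in Ctrl and 9.07, 9.08 and 11.3 in LIP, with no overlap but a gap between the nearest pools that was smaller than the range within Ctrl. The CPM of 38.6 ± 6.11 and 66.2 ± 8.46 (SD, n = 3 a group) gave a log2 difference of 0.78 (standard error 0.162, edgeR adjusted p = 0.00230), the smallest of the 5 that passed. On the neutrophil scale it was -0.98 (edgeR adjusted p = 0.000258).

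*Ddit3* (ENSMUSG00000025408, chr10:127290774-127296288, + strand, 4 exons), which encodes CHOP, stood at 15.3, 17.1 and 17.99 FPKM in Ctrl and at 23.3, 28.3 and 26.3 in LIP. Every LIP pool was above every Ctrl pool. From 27.95 ± 2.62 to 53.4 ± 5.03 CPM (SD, n = 3 a group), its log2 difference was 0.93 (standard error 0.154, edgeR adjusted p = 0.000532). With the neutrophil list as the scale it was -0.83 (edgeR adjusted p = 0.000554). GENCODE vM21 has another gene model of the same name over it on the same strand (ENSMUSG00000116429). That model is not among the counted genes that overlap *Ddit3* here, so whether it took any reads cannot be seen.

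*Cebpz* (ENSMUSG00000024081, chr17:78919006-78937066, - strand, 16 exons), the ribosome assembly factor, did not pass. The Ctrl pools had 20.04, 14.6 and 17.9 FPKM, the LIP pools 14.4, 14.5 and 13.2. In FPKM the LIP pools were all just below the lowest Ctrl pool, while in CPM, where TMM changes the scale, the groups overlapped at 79.0 ± 11.2 and 78.4 ± 4.17 (SD, n = 3 a group). The log2 difference was -0.01 with TMM (standard error 0.136, edgeR adjusted p = 0.955), -0.33 with library totals (edgeR adjusted p = 0.0613) and -1.78 on the neutrophil scale (edgeR adjusted p = 1.46e-06).

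**Figure D2:**
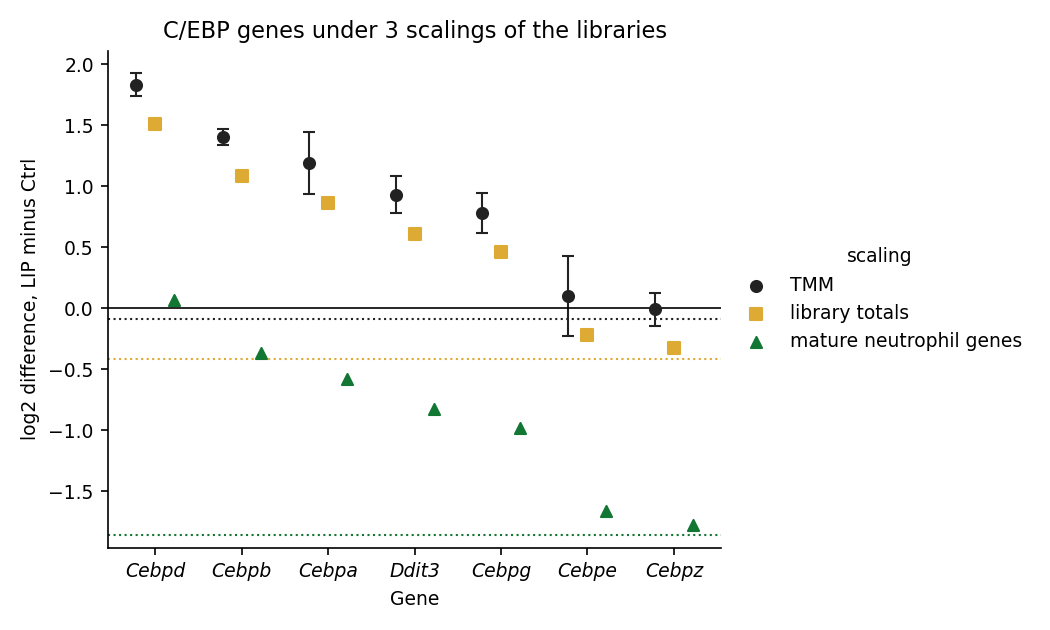
The log2 difference of each C/EBP gene, LIP minus Ctrl, with TMM (black, error bars are standard errors), with library totals (yellow) and with the mature neutrophil list as the scale (green); dotted lines are the medians of all genes tested. *Cebpd* is at 1.83, 1.51 and 0.07 and *Cebpz* at -0.01, -0.33 and -1.78: the scaling moves all genes together and turns the sign of *Cebpb*, *Cebpa*, *Ddit3*, *Cebpg* and *Cebpe*, while the order of the genes is the same in all 3.

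*Cebpb* and *Cebpd* each share exonic bases with an active gene on the other strand. *Cebpb* shares 312 of its 1504 exonic bases (20.7%) with *Tmem189*, and *Cebpd* shares 562 of 3746 (15.0%) with *Spidr*. *Tmem189* went from 113 ± 6.55 to 230 ± 25.8 CPM (SD, n = 3 a group; log2 difference 1.02, edgeR adjusted p = 4.32e-05), and *Spidr* from 24.2 ± 5.003 to 55.8 ± 4.50 (log2 difference 1.21, edgeR adjusted p = 0.000312). The strand used in counting is not given, so reads of the shared bases cannot be assigned to one of the pair. The counts on *Tmem189* were 2.49% to 4.0% of those on *Cebpb*, and those on *Spidr* 8.59% to 16.8% of those on *Cebpd*. *Mars1* shares 68 bases with *Ddit3*, with 44.9% to 129% of its counts, and *Cebpzos* shares 171 with *Cebpz*, with 5.18% to 9.63%. Neither *Mars1* (log2 difference -0.17, edgeR adjusted p = 0.483) nor *Cebpzos* (-0.24, edgeR adjusted p = 0.555) passed. *Cebpa*, *Cebpg* and *Ddit3* also meet the predicted genes *Gm45091*, *Gm45095*, *Gm44836*, *Gm45094* and *Gm4189*, each with at most 8.02% of the counts of its partner.

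The balance within the family does not depend on how libraries are scaled. The summed FPKM of the 7 genes went from 2206 ± 82.9 to 4676 ± 145 (SD, n = 3 a group), and *Cebpb* made up 95.2% ± 0.210 and 95.6% ± 0.227 of it, with overlapping groups. *Cebpd* took 2.02%, 2.09% and 2.16% in Ctrl and 2.76%, 2.94% and 2.83% in LIP, so its share was larger in every LIP pool. The share of *Cebpe* went from 0.556% ± 0.0588 to 0.230% ± 0.102, that of *Cebpz* from 0.797% ± 0.148 to 0.300% ± 0.0228, that of *Ddit3* from 0.762% ± 0.0693 to 0.557% ± 0.0690 and that of *Cebpg* from 0.319% ± 0.0337 to 0.210% ± 0.0237 (SD, n = 3 a group), with no overlap between groups. These 5 shares each gave p = 0.1 in a two-sided exact permutation test, the smallest that 3 libraries against 3 allow (0.14 after Benjamini-Hochberg adjustment over the 7), so no share could pass. As *Cebpb* made up most of the sum, each smaller share lies near the ratio of its gene to *Cebpb*. Over all pairs of tested genes with FPKM above 0 in every library, 61.0% of FPKM ratios did not overlap between the groups. *Ddit3* and *Cebpg* were themselves higher with TMM (log2 differences 0.93 and 0.78), but by less than *Cebpb* (1.40). The share of *Cebpa*, 0.265% ± 0.0924 and 0.228% ± 0.0340, overlapped between groups (exact permutation p = 0.6).

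**Figure D3:**
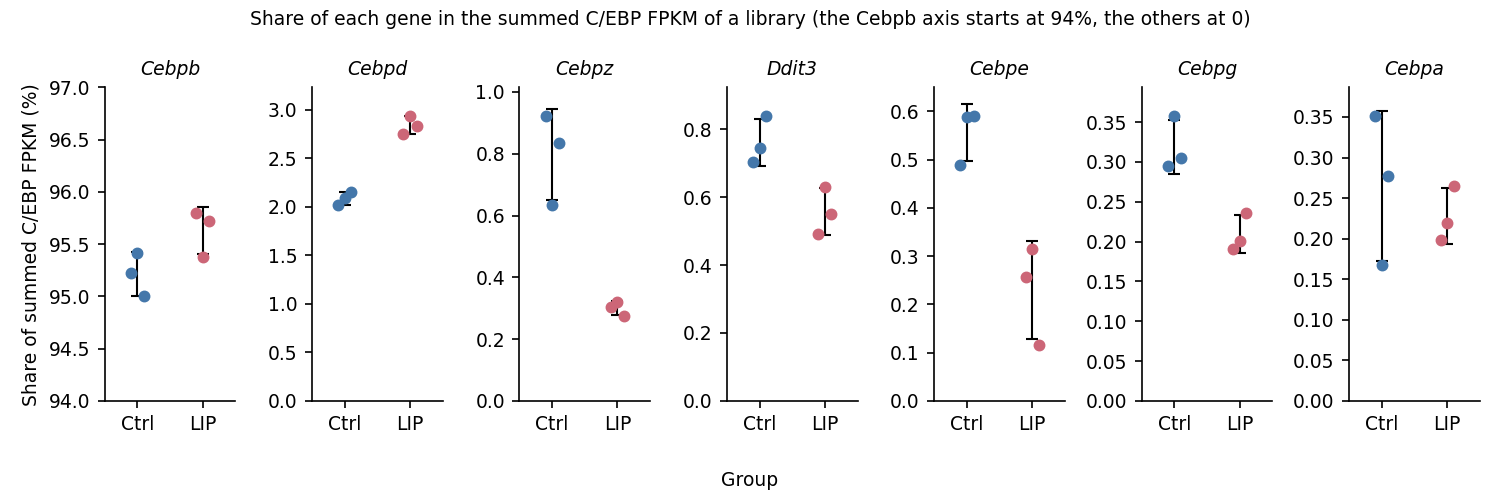
Each gene as a percentage of the summed C/EBP FPKM of its library, with Ctrl in blue and LIP in red; points are libraries and bars show mean ± SD (n = 3), and the *Cebpb* axis does not start at 0. *Cebpd* is above Ctrl in every LIP library, at 2.76% to 2.94%, and *Cebpz*, *Ddit3*, *Cebpe* and *Cebpg* are below.

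Between pairs of members, the FPKM ratio did not overlap between the groups in 14 of 21 pairs, and in 61.0% of all pairs of tested genes with FPKM above 0 in every library, again with p = 0.1 at the least in a two-sided exact permutation test (0.15 adjusted over the pairs). There were 47.1, 45.6 and 44.0 units of *Cebpb* per unit of *Cebpd* in Ctrl and 34.8, 32.5 and 33.8 in LIP. *Cebpd* over *Cebpe* stood at 4.14, 3.55 and 3.65 in the Ctrl pools against 10.7, 9.31 and 24.3 in the LIP pools, the last in the pool with low *Cebpe*. Each LIP pool had a larger ratio of the inflammation-induced to the granule-stage member than any Ctrl pool (exact permutation p = 0.1, 0.15 adjusted), while *Cebpe* itself did not pass between the groups. *Cebpa* over *Cebpe*, early over late factor, was 0.720, 0.284 and 0.470 in Ctrl and 0.772, 0.697 and 2.28 in LIP, and here the groups overlapped (exact permutation p = 0.2, 0.263 adjusted). *Cebpa* and *Cebpg*, the neighbours on chromosome 7, kept a ratio of 1.04 to 1.12 in LIP against 0.468 to 1.19 in Ctrl (exact permutation p = 0.4, 0.494 adjusted).

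Of the upstream regulators of C/EBP factors, 7 of 12 were higher and 2 lower with TMM (median log2 difference 0.74), while on the neutrophil scale none was higher and 11 were lower (median -1.03), as 87.6% of all genes were. For this list and those that follow, the shares of all genes tested were 26.5% higher and 27.2% lower with TMM, and 19.3% and 40.7% in limma on FPKM. *Csf3r*, the G-CSF receptor, went from 1219 ± 264 to 4358 ± 102 CPM (SD, n = 3 a group; log2 difference 1.84, edgeR adjusted p = 2.18e-06), and it also belongs to the neutrophil list. *Spi1*, which encodes the myeloid factor PU.1, went from 646 ± 53.5 to 1862 ± 68.3 (log2 difference 1.53, edgeR adjusted p = 3.90e-07). The Tribbles pseudokinases, scaffolds that bring C/EBPα to the ubiquitin ligase COP1, went in opposite directions with TMM. *Trib2* was at 39.1, 32.9 and 47.6 CPM in Ctrl and 6.73, 13.2 and 4.85 in LIP, a log2 difference of -2.27 (standard error 0.345, edgeR adjusted p = 0.000307). The B cell and T cell lists fell as well with TMM (median log2 differences -2.47 and -2.42), and their part in the *Trib2* value was not tested. *Trib1* was at 453, 376 and 446 CPM in Ctrl and 1032, 1068 and 1115 in LIP (log2 difference 1.33, edgeR adjusted p = 1.76e-06), and *Cop1* rose by 1.18 with TMM (edgeR adjusted p = 3.71e-05); both, and *Il6st*, the other one that was lower (-0.73, edgeR adjusted p = 0.0461), were named after their values were seen. On the neutrophil scale *Trib1* and *Cop1* turn negative with most of the list.

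Among other bZIP factors, 5 of 7 were higher and none lower with TMM (median 1.07), while with the neutrophil list as the scale none was higher and 4 were lower (median -0.70), against 87.6% of all genes lower. *Nfil3* rose with TMM from 175 ± 22.6 to 518 ± 21.3 CPM (SD, n = 3 a group; log2 difference 1.57, edgeR adjusted p = 1.84e-06). *Jdp2*, a repressor of the AP-1 and ATF group, rose by 1.63 (edgeR adjusted p = 0.000499) and the stress-induced *Atf3* by 1.07 (edgeR adjusted p = 9.68e-06). *Atf4*, the activator that stands upstream of *Ddit3* in the integrated stress response, did not pass, at 141, 146 and 152 CPM in Ctrl and 107, 96.7 and 138 in LIP (log2 difference -0.36, edgeR adjusted p = 0.0514). In RNA, all 3 LIP pools were below Ctrl for *Atf4*, with the nearest pools at 138 and 141 CPM, and all 3 were above for *Ddit3*. The groups did not overlap in CPM in 63.4% of all genes, and *Atf4* was named after its values were seen. ATF4 protein was not measured, and a link between the genes was not tested. *Dbp* did not pass either (-0.89, edgeR adjusted p = 0.0722). At an unadjusted p under 0.05, and in limma on FPKM, 2 of the 7 were lower, and in DESeq2 none.

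The integrated stress and unfolded protein response, to which CHOP belongs, had 11 of 27 genes higher and 3 lower with TMM (median 0.28), where 26.5% and 27.2% of all genes were. In limma on FPKM 9 were higher and 8 lower, against 19.3% and 40.7% of all genes. On the neutrophil scale none was higher and 24 were lower (median -1.49), where 87.6% of all genes were lower. *Chac1*, a glutathione-degrading enzyme of the ATF4 and CHOP arm, went from 4.21 ± 0.814 to 20.2 ± 4.11 CPM (SD, n = 3 a group; log2 difference 2.27, edgeR adjusted p = 6.72e-05). *Slc7a11*, a cystine transporter, rose with TMM by 1.74 (edgeR adjusted p = 6.88e-07) and *Sesn2*, a stress sensor, by 1.40 (edgeR adjusted p = 2.03e-05). The 3 lower genes, named after their values were seen, were the endoplasmic reticulum chaperones *Pdia4* (-1.36, edgeR adjusted p = 0.000143) and *Hsp90b1* (-0.71, edgeR adjusted p = 0.000199) and the translation factor gene *Eif2s1* (-1.10, edgeR adjusted p = 0.000451).

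All 12 secondary and tertiary granule genes tested were higher with TMM (median 1.5), while *Cebpe* did not pass; on the neutrophil scale 3 of them were higher and 6 lower (median -0.27), against 0.776% and 87.6% of all genes. *Mmp8*, neutrophil collagenase, went from 314 ± 23.9 to 1790 ± 143 CPM (SD, n = 3 a group; log2 difference 2.51, edgeR adjusted p = 5.39e-08). *Lcn2*, which binds siderophores, rose by 2.06 and *Hp*, haptoglobin, by 2.01 (edgeR adjusted p = 2.09e-07 for each). In the third LIP library, where *Cebpe* was low, the granule list summed to 23050 CPM, against 22800 and 24590 in the other LIP libraries. This is a single library, and a link between *Cebpe* and the granule genes was not tested. Of the primary granule genes, which are made earlier, 3 were tested and none was called higher or lower: *Ctsc* (0.04, edgeR adjusted p = 0.839), *Prtn3* (-0.02, edgeR adjusted p = 0.974) and *Elane* (-1.33, edgeR adjusted p = 0.261), the last 2 at no more than 3.22 CPM in any library. At an unadjusted p under 0.05 and in DESeq2 none of the 3 passed, and in limma on FPKM 1 was lower. For the secondary and tertiary granule genes DESeq2 called 12 higher and limma 11, and none was lower at an unadjusted p under 0.05 in edgeR or by either tool.

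Known inflammatory targets of C/EBPβ and C/EBPδ were higher in 10 of 11 genes with TMM (median 1.77), and on the neutrophil scale 1 was higher and 4 were lower (median 0.01), against 0.776% and 87.6% of all genes. *S100a9* went from 3600.0 ± 432 to 14720 ± 439.9 CPM (SD, n = 3 a group; log2 difference 2.03, edgeR adjusted p = 8.25e-08) and its partner *S100a8* rose by 1.95 (edgeR adjusted p = 2.24e-07); both belong to the neutrophil list as well. *Ptgs2*, the inducible cyclooxygenase, stood at 492, 226 and 297 CPM in Ctrl and at 1635, 995 and 1451 in LIP, a wide spread within both groups but no overlap (log2 difference 2.01, edgeR adjusted p = 0.000113). *Il6* did not pass, at 1.65 to 5.85 CPM over all libraries (log2 difference 0.06, edgeR adjusted p = 0.918), and none of the 11 was lower at an unadjusted p under 0.05, or in DESeq2 or limma.

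The genes of nucleolar ribosome assembly, the process in which the *Cebpz* product works, went the other way, with 15 of 17 lower and none higher with TMM (median -1.13) and all 17 lower on the neutrophil scale (median -2.89), where 87.6% of all genes were lower. *Nop56* went from 90.1 ± 15.2 to 29.3 ± 2.51 CPM (SD, n = 3 a group; log2 difference -1.62, edgeR adjusted p = 1.34e-05). *Noc2l*, whose yeast counterpart forms a complex with that of *Cebpz*, fell by 1.49 (edgeR adjusted p = 0.000102) and *Mak16* fell by 1.41 (edgeR adjusted p = 0.000386). *Rrp1b* (-0.40) and *Nop2* (-0.50) did not pass (edgeR adjusted p = 0.175 and 0.0769). None of the 17 was higher at an unadjusted p under 0.05, or in DESeq2 or limma. The log2 difference of *Cebpz* with TMM, -0.01, was above the range of the list, whose highest value was -0.40. Beside these genes the B cell, T cell and erythroid transcripts fell as well, and their part in the list was not tested.

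**Figure D4:**
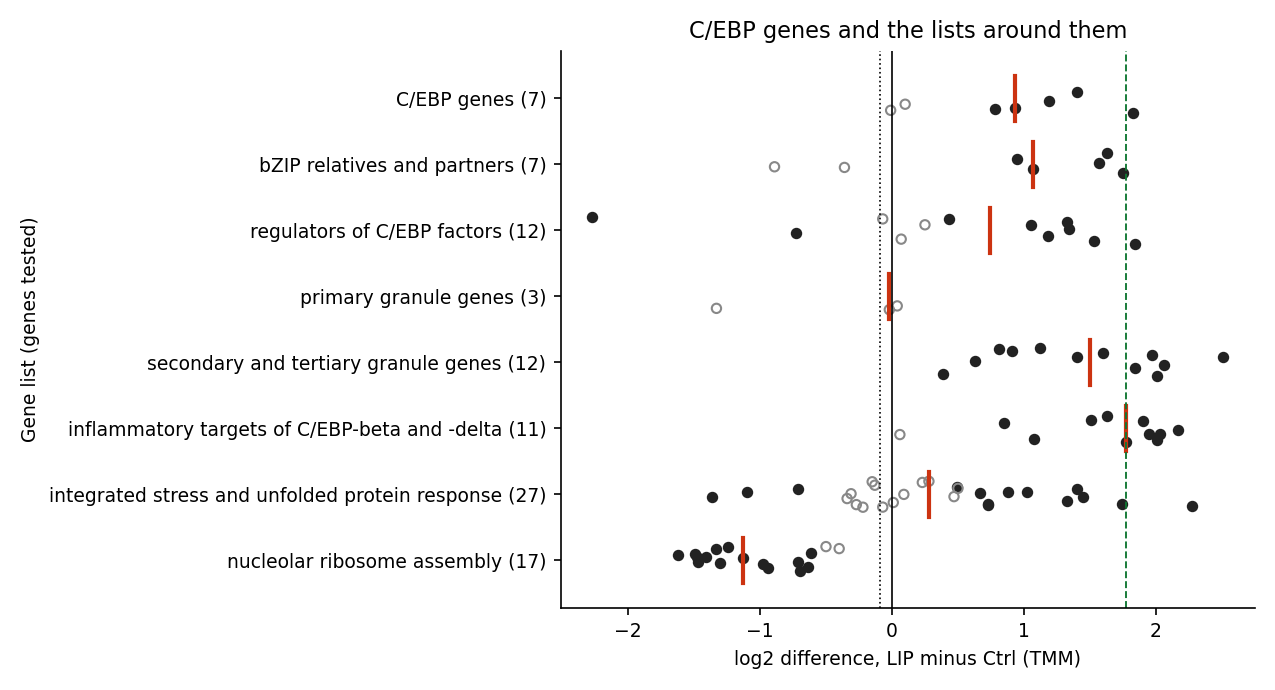
The log2 difference, LIP minus Ctrl with TMM, of the C/EBP genes and of the genes tested in 7 lists; filled points passed an edgeR adjusted p of 0.05, red bars are medians, the dotted line is the median of all genes and the dashed line at 1.77 is where 0 would lie on the scale set by the mature neutrophil list. The C/EBP genes have a median of 0.93 and the nucleolar list one of -1.13, and to the left of the dashed line a gene is lower in LIP on that scale.

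For each C/EBP gene, the 2 genes with the most similar profile were found among 3382 genes with a mean of at least 10 FPKM, by the largest distance in any of the 6 libraries between log2 CPM values centred on each gene's mean. *Cebpd* ran with *Pi16* (largest distance 0.04) and the chemokine gene *Cxcl2* (0.05), and *Cebpb* with *Cd84* (0.05) and the ferritin gene *Fth1* (0.06). *Ddit3* was most like *Ifi27l2a* (0.08) and *Tm6sf1* (0.10), *Cebpg* like *Calm3* (0.09) and *Pbxip1* (0.12), *Cebpa* like *Gnpda1* (0.11) and *Tollip* (0.18), and *Cebpz* like *Serp1* (0.08) and *Papola* (0.09). The profile of *Cebpe* had no close match: its nearest were *Ssna1* at 0.24 and *Sdf2l1* at 0.37, and both were at their lowest in the third LIP library too, *Ssna1* at 22.6 CPM against 31.8 to 41.8 in the other 5 and *Sdf2l1* at 12.8 against 18.2 to 21.3. With 6 libraries in 2 groups, such likeness rests mostly on the step between the groups. *Cebpe* makes no such step, and its nearest genes were picked over the same libraries, so their low values in the third LIP library follow from that choice.

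**Figure D5:**
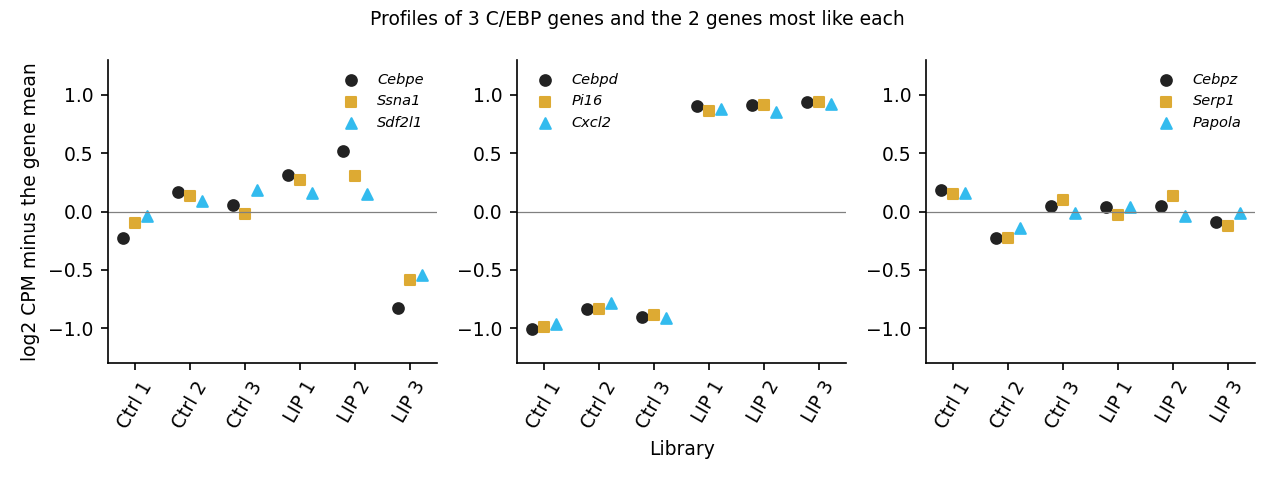
The log2 CPM of *Cebpe*, *Cebpd* and *Cebpz* in each library, less the mean of the gene, with the 2 genes most like each. *Cebpd*, *Pi16* and *Cxcl2* make one step between Ctrl and LIP, with largest distances from *Cebpd* of 0.04 for *Pi16* and 0.05 for *Cxcl2*. *Cebpz* makes none, and *Cebpe*, *Ssna1* and *Sdf2l1* drop in the third LIP library.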

How the data were processed

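The deposited table gives, for GRCm38 genes, the authors' unnormalized read counts and their FPKM, in which the authors divided counts by gene length and library total. Per the labels' processing notes, cutadapt 1.9 and FastQC were used; aligner, counting tool and use of strand are not given in the sources used here. Smart-seq2 attaches no molecular identifiers, so counting error understates the error of a value. Counts of genes whose FPKM averaged 1 or more were tested with the quasi-likelihood method of edgeR 4.0.16 under R 4.3.3, with TMM and Benjamini-Hochberg adjustment over all 10433; p-values measure the spread between pools of mice. Where a name had several rows (50 names), the row of larger mean FPKM was kept. No replicate pair held identical values (chi-square per gene 51.8 to 126).

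The members and gene lists were chosen with earlier results of these data known. Named are all C/EBP genes, genes overlapping them, their 2 nearest profiles, and in each list the 3 largest changes with adjusted p under 0.05 and mean FPKM of at least 5, or every called gene where a list had 4 or fewer. No primary granule gene was called, and all 3 that were tested are named. Other genes named from the lists fall outside this rule and were named after their values were seen. Among them are *Atf4*, *Dbp*, *Il6*, *Rrp1b* and *Nop2*, which did not pass. Alternatives were other scalings, filters and tests (DESeq2 1.42.0, limma 3.58.1), a replicate block and leave-one-out fits. Gene structure is from GENCODE vM21, promoters from RefSeq.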

Additional observations from a re-analysis of the deposited data

How the results depend on the processing

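Scaling on the 20 mature neutrophil genes changed the calls: 0 C/EBP genes were then higher and 5 lower, 9217 genes were called in all (81 higher, 9136 lower), and the log2 differences were -0.58 for *Cebpa*, -0.37 for *Cebpb*, 0.07 for *Cebpd*, -1.66 for *Cebpe*, -0.98 for *Cebpg*, -1.78 for *Cebpz* and -0.83 for *Ddit3*. The cause was not tested beyond the shift that this scaling gives every gene. Under every other alternative 5 C/EBP genes were higher and 0 lower, and leaving out one library each gave log2 differences of 0.99 to 1.43 for *Cebpa*, 1.38 to 1.46 for *Cebpb*, 1.79 to 1.89 for *Cebpd*, -0.15 to 0.41 for *Cebpe*, 0.67 to 0.94 for *Cebpg*, -0.10 to 0.09 for *Cebpz* and 0.87 to 1.00 for *Ddit3*. Of genes called over the table, 5603 in all with TMM, 3636 were called with a mean FPKM of at least 5, where 5326 were tested, and 6065 with library totals (31.6% of them higher, against 49.3% with TMM); limma on log2(FPKM + 1) gave 32.1% higher. As shares of summed CPM in place of FPKM, *Cebpd* differed by 1.78 percentage points, *Cebpg* by -0.386 and *Cebpz* by -1.45, and leaving out one library each moved the difference of the *Cebpa* share, -0.0373, to between -0.0863 and 0.00557, the latter without the first Ctrl library.

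Replicate numbers recur in both groups as labels, for pools of other mice: the deviations of same-numbered libraries correlated at 0.0222, 0.0582 and 0.0364, all below 0.1. Those of differently numbered libraries correlated at -0.0511 to 0.0224. With the replicate block 5 C/EBP genes were higher and 0 lower, with 1.40 for *Cebpb* and 0.01 for *Cebpe*, and 5546 genes were called. With 3 pools a group, exact permutation tests of shares and ratios could not go below 0.1.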
